A study of Equus caballus with 18 samples.

Results

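The genes described here are the 100 whose level followed that of MYH1 most closely across the skeletal muscles of 1 horse. RNA was sequenced from 18 muscles of 1 male Jeju horse, with 1 library per muscle. The sources used here name no treatment, and the muscles were taken from the carcass and frozen; age at slaughter is not given in them. A single animal limits what the data show to the differences between its own muscles. Of the 25239 genes in the table of counts, 11201 had at least 10 counts in all 18 libraries and were ranked by Spearman correlation with MYH1. MYH1 itself and the 52 genes that the study drew in its expression heatmap (MYH1 among them) were left out, and the next 100 genes were taken as members. Because these values chose the members, every correlation with MYH1 and every slope on it below is a description and carries no test. The SEs of slopes take the 18 libraries as independent and make no allowance for that choice.

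MYH1 encodes the fast myosin heavy chain of type IIX fibres, the fibres that contract fast and rely most on glycolysis. MYH7 encodes the slow myosin heavy chain of type I fibres, which rely on oxidative metabolism. Whole muscles are mixtures of such fibres, so a level in a muscle sample reflects both how many fibres of a type it holds and how much RNA each of them carries, and these cannot be told apart in bulk RNA. The myosin heavy chain genes resemble each other in sequence, so reads of MYH1 may have been split with its neighbours in the family during counting.

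The muscles are named after their tissue labels, some of them shortened, and were placed in 5 body regions by textbook anatomy. The proximal forelimb held the long head of the triceps brachii, the biceps brachii, the infraspinatus and the supraspinatus. The girdle and neck held the rhomboideus, omohyoideus, trapezius and pectoralis (pectoralis major by its label, though the study's materials name it in more than 1 way). The distal extensors were the extensor digitorum communis and extensor carpi radialis of the forelimb and the extensor digitorum longus and lateralis of the hindlimb. The proximal hindlimb held the semitendinosus, the gluteus superficialis and the vertebral, middle and caudal parts of the biceps femoris, which are 3 parts of 1 muscle. The longissimus (thoracis and lumborum by its label) was the only trunk muscle. The libraries held 31395013 to 50508515 counts in total, and the most abundant single gene took 21.2 to 39.1% of them. The module's level had a Spearman correlation of 0.26 with the total counts, of -0.10 with the normalization factor and of 0.50 with the share of the most abundant gene (n = 18 libraries), and the part of these measures in the results was not tested.

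MYH1 varied 208-fold across the muscles. In the girdle and neck its level was 135 CPM (counts scaled to a common library size with edgeR's TMM factors) in the rhomboideus, 165 in the trapezius, 303 in the omohyoideus and 10091 in the pectoralis. In the distal extensors it was 311 CPM in the extensor digitorum communis, 480 in the extensor digitorum lateralis, 2308 in the extensor digitorum longus and 28050 in the extensor carpi radialis. Both regions therefore held some of the lowest levels of MYH1 together with a high one. The proximal forelimb had 4859 CPM in the biceps brachii, 6570 in the infraspinatus, 9433 in the triceps brachii and 14171 in the supraspinatus. The proximal hindlimb had 2565 CPM in the gluteus superficialis, 10810, 11685 and 12172 in the middle, caudal and vertebral parts of the biceps femoris, and 16852 in the semitendinosus. The longissimus was at 14786 CPM. All proximal limb muscles lay above the 5 muscles of lowest MYH1, which were the rhomboideus, trapezius, omohyoideus, extensor digitorum communis and extensor digitorum lateralis.

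The 100 members had Spearman correlations with MYH1 of 0.730 to 0.928, with a median of 0.775, while the median over all 11201 genes ranked was -0.02. At the edge of the list the difference between member and non-member was small. The last 5 members lay between 0.730 and 0.732, and the next 5 genes outside lay between 0.725 and 0.728. All 100 members correlated negatively with MYH7, as did 51.3% of all genes ranked, and the module's own level was at -0.55 over the 18 muscles. MYH1 itself was at -0.51 with MYH7, a sign that the choice of genes following MYH1 favours. The median Spearman correlation between members was 0.71 over their 4950 pairs, with a lowest value of 0.27. The first principal component of the members held 73.8% of their variance and the second 5.72%, and all 100 members had the same sign on the first. Genes chosen for their likeness to 1 gene over the same libraries resemble each other through that choice, so these values describe the list and are not support for it.

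The members changed far less than MYH1 did. The slope of a member's log2 CPM on the log2 CPM of MYH1 ranged from 0.04 to 0.45, with a median of 0.14, so that for each doubling of MYH1 the median member was 1.10-fold higher. Over a 10-fold step in MYH1 this came to 1.38-fold. The median slope of all genes ranked was -0.00. The ratio of the highest to the lowest muscle, on the scale of log2 CPM with a prior count of 2, was 1.59 to 15.9 among the members with a median of 3.33, against a median of 2.42 over all genes ranked. None of the members varied as widely as MYH1. A range over 2-fold was found for 88 members (72.2% of all genes ranked), over 4-fold for 35 (15.3%) and over 8-fold for 12 (3.71%). The ranks of correlation and the sizes of change were related only in part. The median slope was 0.20 for ranks 1 to 50 and 0.12 for ranks 51 to 100, and 8 of the 10 largest slopes but also 2 of the 5 smallest belonged to ranks 1 to 50. The 10 highest correlations, 0.872 to 0.928, went with slopes of 0.11 to 0.45. The 10 largest slopes were 0.28 to 0.45, with ranges of 7.74 to 15.9-fold, and the 5 smallest were 0.04 to 0.06, with ranges of 1.59 to 1.96-fold.

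**Figure D1:**
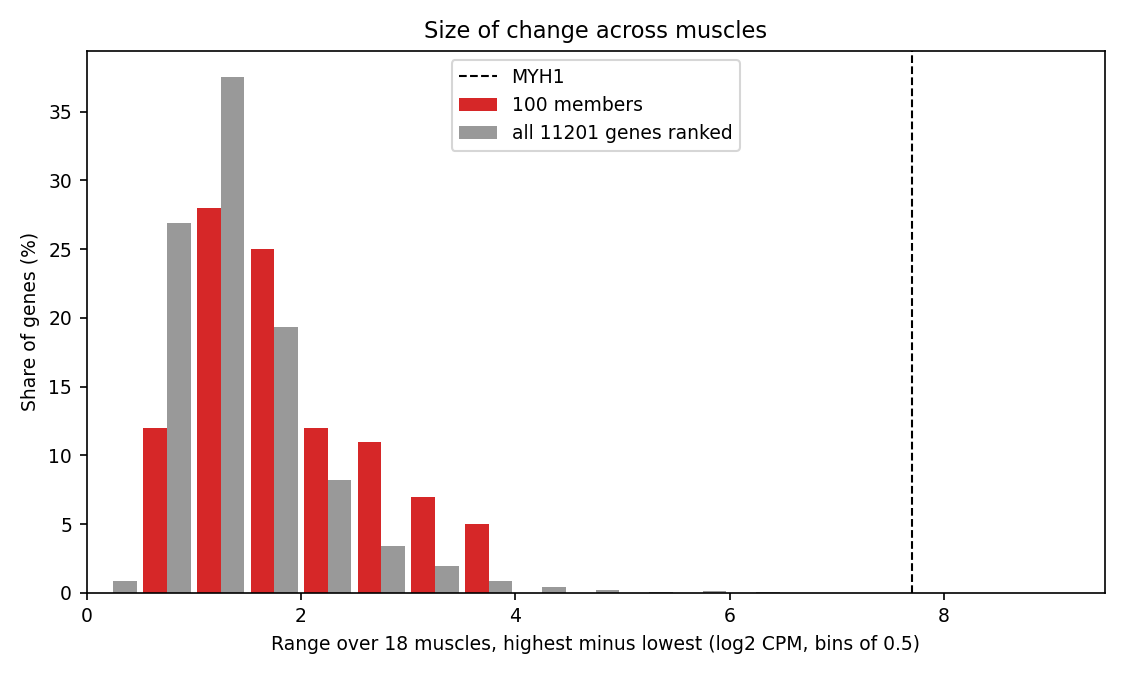
Range of each gene over 18 muscles, as the highest minus the lowest log2 CPM in bins of 0.5, with the share of genes in percent on the vertical axis, for the 100 members (red) and all 11201 genes ranked, members included (grey). The dashed line marks MYH1 at 7.70; the members reach further right than most genes, but none comes near MYH1.

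The file lists genes by Ensembl identifier and pairs none of them with a name, so members are given by their rank and 2 of them by identifier. The member of rank 1, ENSECAG00000025060, had a Spearman correlation of 0.928 with MYH1 and a slope of 0.34 ± 0.05 (SE, n = 18 libraries). Its level was 2.20 CPM in the trapezius, 3.21 in the omohyoideus, 3.78 in the rhomboideus and 13.3 in the pectoralis. It was 4.25 CPM in the extensor digitorum lateralis, 5.77 in the communis, 6.24 in the longus and 25.6 in the extensor carpi radialis. In both regions the muscle with the most MYH1 stood above the other 3.

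In the proximal forelimb the same gene had 4.36 CPM in the biceps brachii, 6.98 in the infraspinatus, 8.06 in the triceps brachii and 13.6 in the supraspinatus. It reached 5.82 CPM in the gluteus superficialis, 7.15, 13.8 and 18.6 in the caudal, middle and vertebral biceps femoris, and 26.9 in the semitendinosus, and 10.7 in the longissimus. The order within the proximal forelimb was that of MYH1, and in the proximal hindlimb only the caudal and middle biceps femoris were exchanged.

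The member of rank 8, ENSECAG00000013207, had the largest slope, 0.45 ± 0.07 (SE, n = 18), and the widest range, 15.9-fold. Its mean of 5.76 CPM was near the median of 6.13 CPM over all genes ranked, with 31 counts in its lowest library and 552 in its highest. Its level was 0.87 CPM in the trapezius, 1.16 in the rhomboideus, 1.99 in the omohyoideus and 3.40 in the pectoralis, and 1.004, 1.30, 9.58 and 14.7 in the extensor digitorum communis, lateralis and longus and the extensor carpi radialis. The value in the extensor digitorum longus was higher than in 13 other muscles, of which 8 had more MYH1. In the proximal forelimb it had 2.15 CPM in the infraspinatus, 2.26 in the biceps brachii, 5.88 in the triceps brachii and 7.70 in the supraspinatus. In the proximal hindlimb it had 2.86 CPM in the gluteus superficialis, 5.52, 6.61 and 12.3 in the caudal, middle and vertebral biceps femoris and 10.1 in the semitendinosus, and the longissimus was at 14.3.

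Among the members with a high level, that of rank 27 had at least 74332 counts in every library. Its level was 2052, 2279, 2431 and 3620 CPM in the rhomboideus, trapezius, omohyoideus and pectoralis. The extensor digitorum communis, lateralis and longus and the extensor carpi radialis had 2242, 2904, 5450 and 7231 CPM. The proximal forelimb lay between 3208 CPM in the biceps brachii and 5403 in the triceps brachii, and the proximal hindlimb between 4719 in the gluteus superficialis and 10726 in the vertebral biceps femoris. All proximal hindlimb muscles were above all girdle and neck muscles for this gene, although the gluteus superficialis held less MYH1 than the pectoralis. The member of rank 14 had its highest level in the same muscle, 499.8 CPM in the vertebral biceps femoris against 199 and 196 in the middle and caudal parts, and its lowest, 44.8 CPM, in the extensor digitorum communis. The member of rank 45 ranged 14.2-fold, from 25.6 CPM in the extensor digitorum lateralis to 364 in the extensor carpi radialis. At the other end, the member of rank 88 had the smallest slope, 0.04 ± 0.01 (SE, n = 18), and lay between 2.73 CPM in the trapezius and 4.38 in the supraspinatus.

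**Figure D2:**
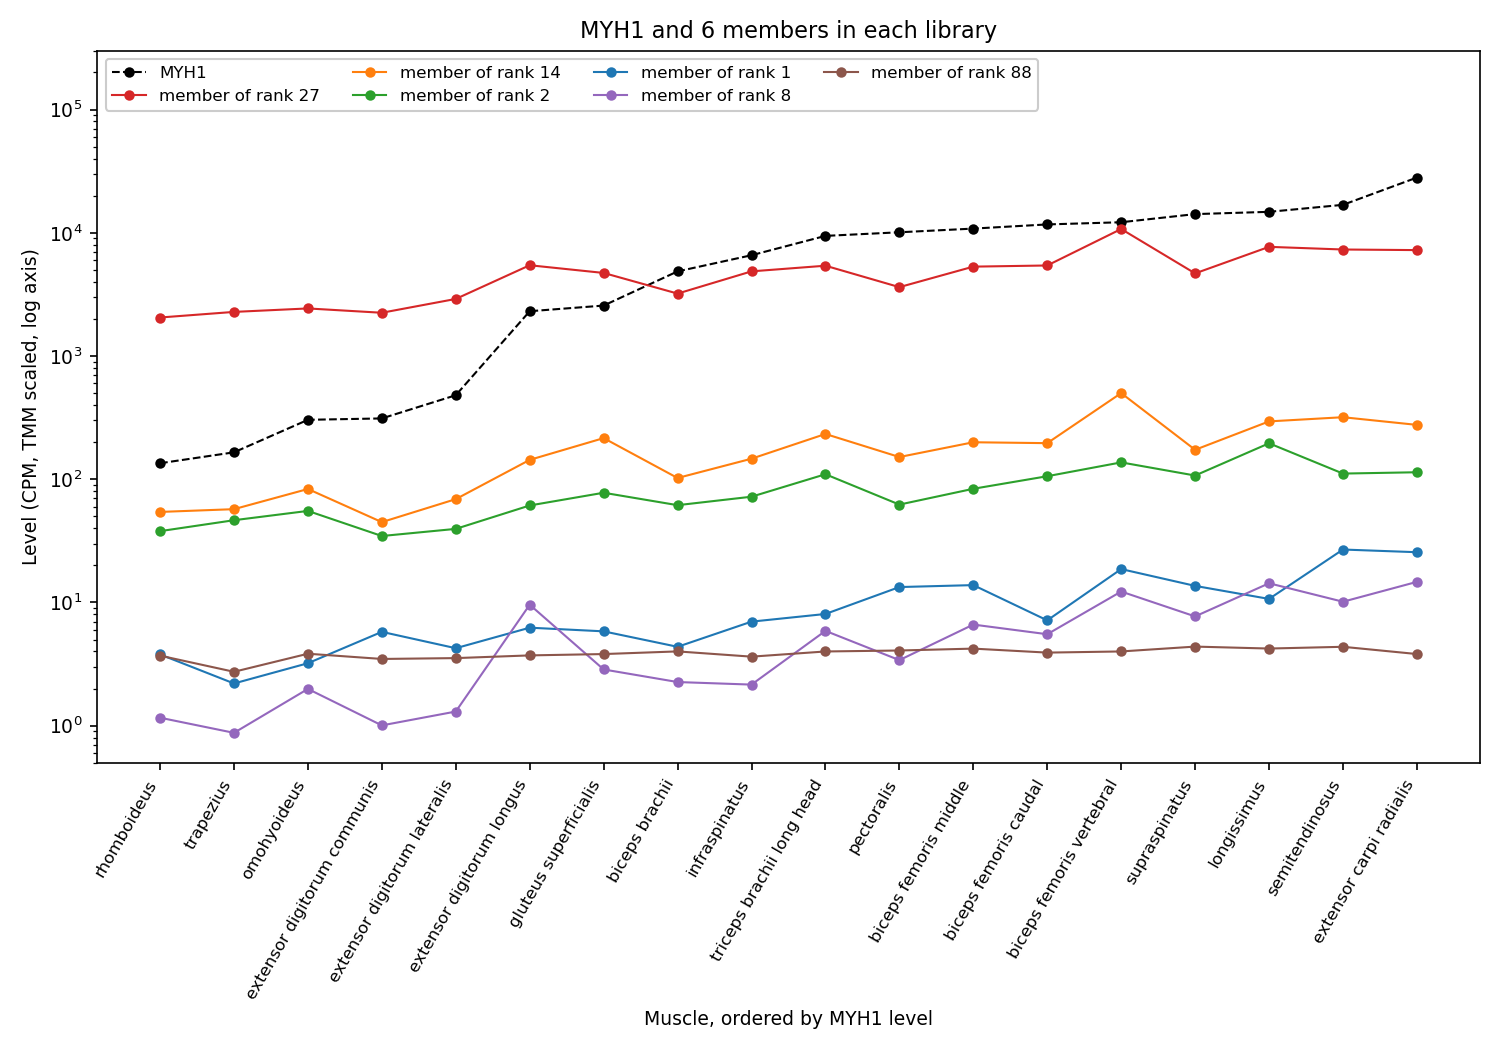
Level of MYH1 (dashed) and of 6 members in each of 18 libraries, in CPM on a log axis, with the muscles ordered by MYH1 from left to right; the 6 members were chosen after their values were seen. MYH1 climbs from 135 to 28050 CPM, the member of rank 8 changes 15.9-fold and the member of rank 88 only 1.59-fold. Levels are not per length and are not to be compared between genes.

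The module's level in a muscle was taken as the mean over the 100 members of log2 CPM after each member was centred on its own mean over the 18 muscles. It was highest in the longissimus at 0.57, where all 100 members were above their own mean, and in the vertebral biceps femoris at 0.52. The extensor carpi radialis followed at 0.47, the semitendinosus at 0.41, the supraspinatus and the caudal biceps femoris at 0.35, the triceps brachii at 0.27 and the middle biceps femoris at 0.21. The infraspinatus (0.07), pectoralis (0.04), gluteus superficialis (-0.04), extensor digitorum longus (-0.06) and biceps brachii (-0.16) lay near the middle. The omohyoideus (-0.48), trapezius (-0.55), rhomboideus (-0.56), extensor digitorum lateralis (-0.69) and extensor digitorum communis (-0.71) were lowest, and each had at most 5 members above their own mean. These 5 muscles were separated from the other 13 by more than any other gap in the order. With 1 library per muscle, no error between animals or repeat samples can be given for a level, and neighbours in the order cannot be told apart from equal ones.

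**Figure D3:**
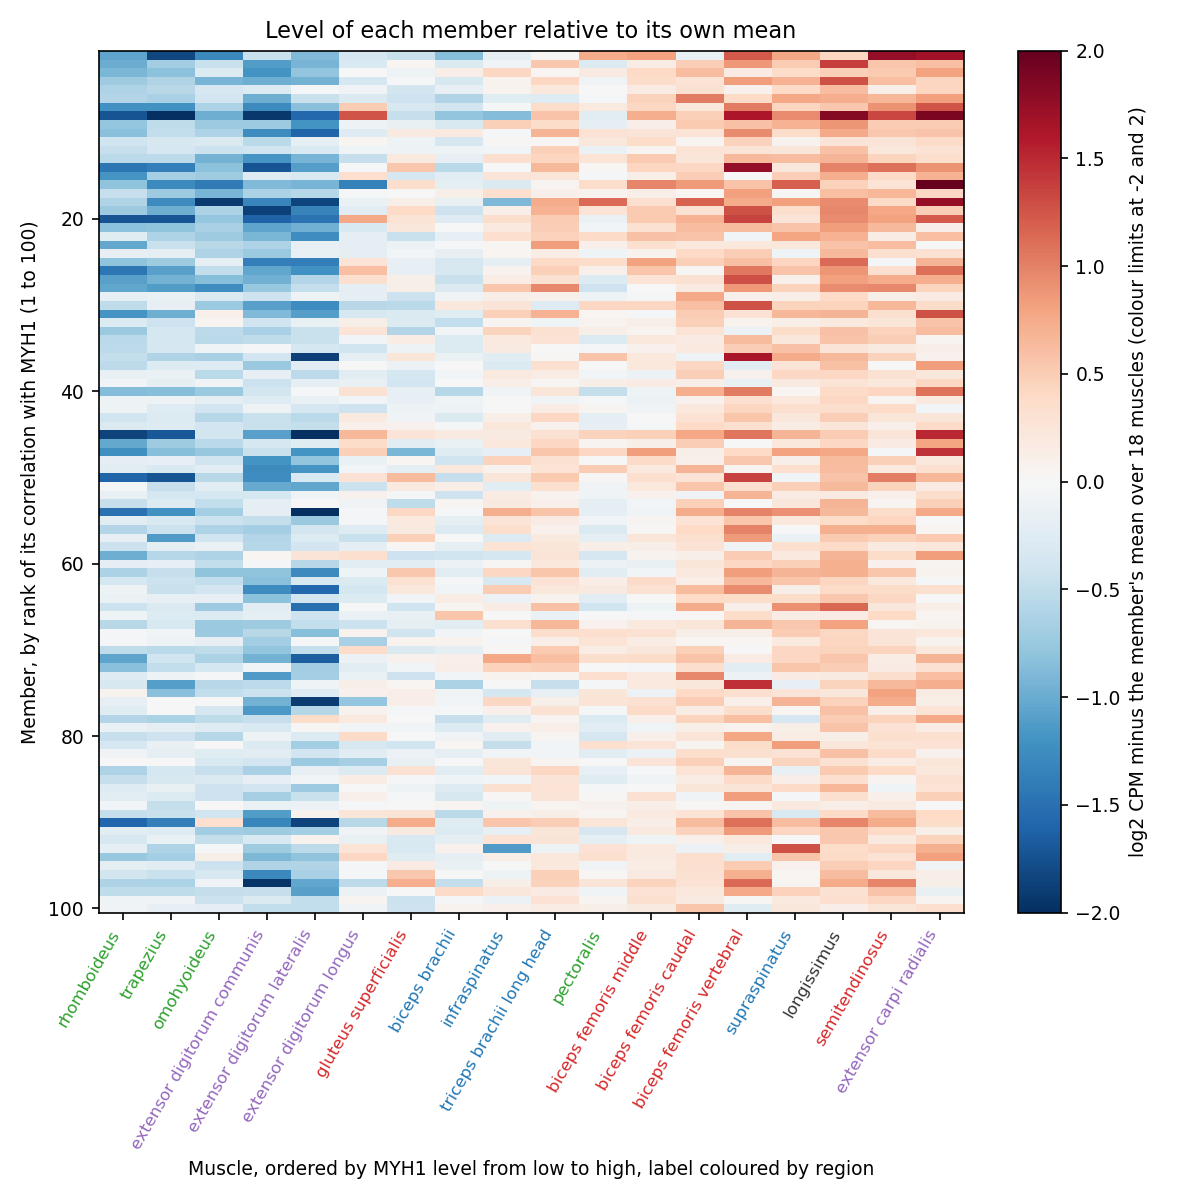
Each of the 100 members (vertical axis, by rank of correlation with MYH1) in each of 18 muscles (horizontal axis, ordered by MYH1), as log2 CPM minus the member's own mean, from blue (below) to red (above), with colours limited at -2 and 2. The 5 muscles on the left are blue for nearly all members, and the longissimus is above the mean for all 100.

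The vertebral biceps femoris held the highest level of 32 members, the longissimus of 25 and the extensor carpi radialis of 18. Over all genes ranked, 12.2% had their highest level in the vertebral biceps femoris, 6.13% in the longissimus and 5.79% in the extensor carpi radialis. The lowest level was in the extensor digitorum communis for 33 members and in the extensor digitorum lateralis for 27, where 10.8% and 14.03% of all genes ranked had theirs. The rhomboideus, which had the least MYH1, was lowest for 17 members and for 4.20% of all genes ranked.

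A muscle was counted as deviating from MYH1 if its module level lay over 2 residual SDs from the line on log2 MYH1, or if its ranks by module and by MYH1 differed by 5 or more. None of the 18 muscles met either limit. The module level had a Spearman correlation of 0.930 and a Pearson r of 0.941 with MYH1, which the choice of members had fixed in large part. The largest rank difference was 3, upwards for the vertebral biceps femoris and downwards for the extensor digitorum communis and lateralis. The largest residuals were those of the biceps brachii (-1.62 SDs), the extensor digitorum lateralis (-1.58), the longissimus (1.51), the vertebral biceps femoris (1.49) and the pectoralis (-1.41). Over the 9 proximal limb muscles alone, where MYH1 spanned a narrower range, all 100 members had a positive correlation with MYH1. The median was 0.59 and the lowest value 0.10, and 49.2% of all genes ranked were positive. The module level had a Spearman correlation of 0.917 there. Without the rhomboideus and trapezius, the muscles farthest from the median of MYH1, it was 0.935 over 16 muscles. Both subsets were among the muscles that chose the members. Their values, and the distance from all genes, are therefore fixed in large part by that choice and do not show that the relation persists.

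**Figure D4:**
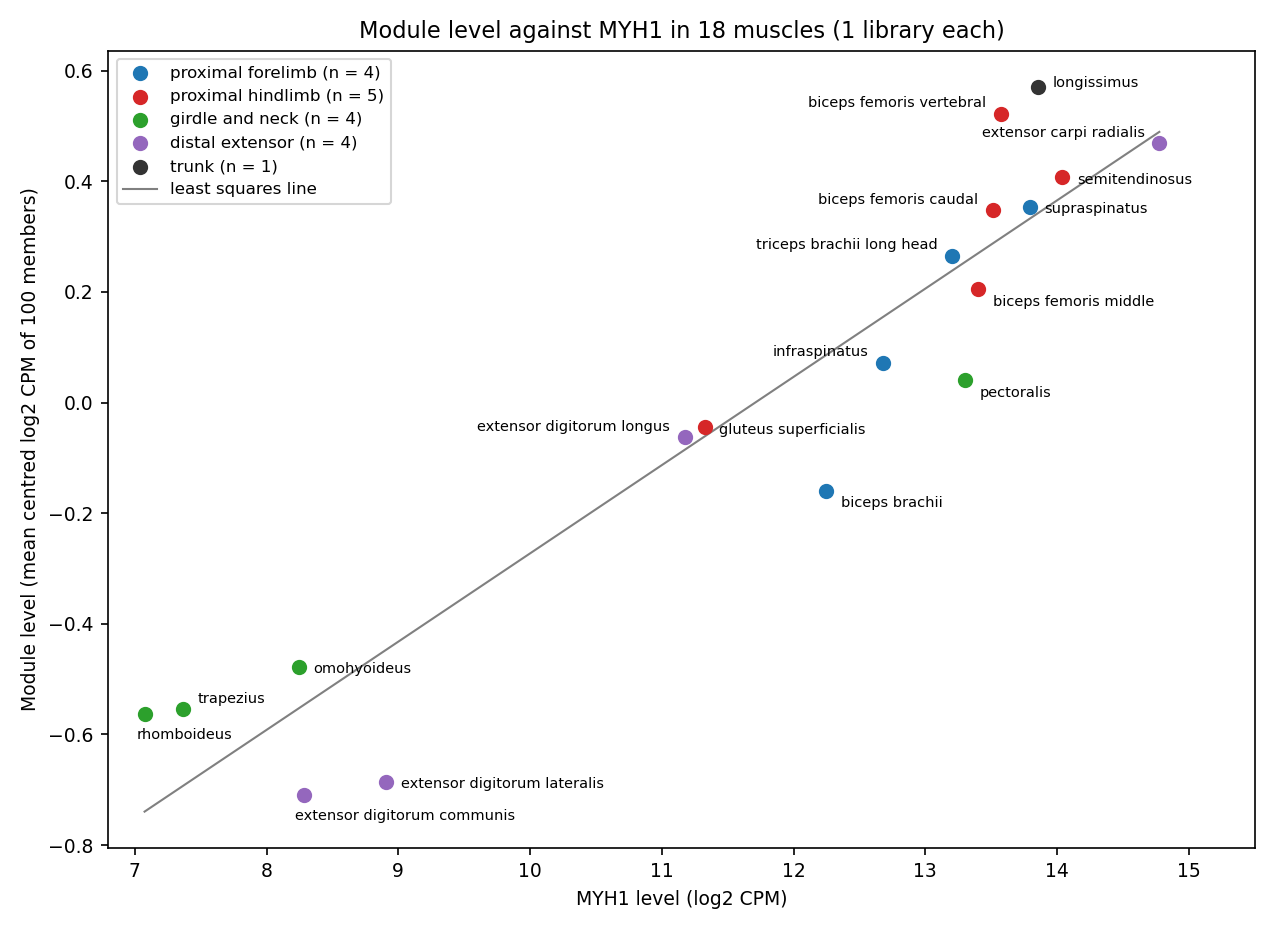
Module level (mean centred log2 CPM of the 100 members) against the log2 CPM of MYH1 for 18 muscles, 1 point per library, coloured by body region, with the least squares line. The points follow the line without a muscle beyond 2 residual SDs; the longissimus and the vertebral biceps femoris lie above it, and the biceps brachii and pectoralis below.

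Among the pairs of muscles examined with nearly the same MYH1, the gluteus superficialis and extensor digitorum longus were the most even in the number of members higher and lower. The pairs given here were chosen after their values were seen. The pectoralis had 1.07-fold as much MYH1 as the triceps brachii, but 77 of 100 members were lower in the pectoralis, by a median of 0.25 on the log2 scale. The longissimus had 1.04-fold as much MYH1 as the supraspinatus, and 77 members were higher in the longissimus. Within the biceps femoris, the vertebral part had 1.13-fold as much MYH1 as the middle part, and 70 members were higher in it, with a median of 1.31-fold. The gluteus superficialis had 1.11-fold as much MYH1 as the extensor digitorum longus, and 49 members were higher and 51 lower in it, with a median difference of -0.01 on the log2 scale. In these 4 pairs between 48.4% and 51.8% of all genes ranked were higher in the muscle named first. The rhomboideus had 0.82-fold as much MYH1 as the trapezius, a wider difference. There 40 members were higher and 60 lower in the rhomboideus, with a median difference of -0.02 on the log2 scale (49.5% of all genes ranked were higher). In a pair with unequal MYH1, the extensor carpi radialis had 1.90-fold as much as the longissimus, and 65 members were lower in it, where 48.6% of all genes ranked were higher in it. With 1 library on each side, such a difference has no replicate check.

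Within regions the members went with MYH1 to different degrees. The muscles compared are those with the most and the least MYH1 in each region and were among those that chose the members, so the direction and the distance from all genes are fixed in large part by that choice. Among the distal extensors, which extend the digits and the carpus, the extensor carpi radialis had 90.1-fold as much MYH1 as the extensor digitorum communis. All 100 members were higher in it, with a median of 2.02-fold, while the median over all genes ranked was 0.995-fold. The pectoralis had 74.9-fold as much MYH1 as the rhomboideus, and 94 members were higher in it (48.9% of all genes ranked). The median was 1.40-fold (0.991-fold over all genes ranked). The supraspinatus had only 2.92-fold as much MYH1 as the biceps brachii, and 97 members were higher in it (50.8% of all genes ranked). The members' median was again 1.40-fold (1.004-fold over all genes ranked). In the proximal hindlimb, 94 members were higher in the semitendinosus than in the gluteus superficialis, with a median of 1.35-fold at 6.57-fold as much MYH1. The members' step was thus not in proportion to that of MYH1 from region to region.

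The regions were then compared in 1 fit over all libraries with edgeR's quasi-likelihood test, which took the libraries of a region as its replicates, the 3 parts of the biceps femoris included as 3 libraries. Since the muscles come from 1 animal, and the members were chosen on the same libraries, the counts below say how the members sat among regions and nothing more. The module level was -0.39 ± 0.29 in the girdle and neck (SD, n = 4), 0.13 ± 0.23 in the proximal forelimb (SD, n = 4), 0.29 ± 0.22 in the proximal hindlimb (SD, n = 5 libraries of 3 muscles) and -0.25 ± 0.56 in the distal extensors (SD, n = 4). In the hindlimb against the girdle and neck all 100 members had a positive log2 fold change, with a median of 0.62, but none of them passed an adjusted p of 0.05. No gene of the 14770 tested passed either, so that the share called was 0%. At an unadjusted p under 0.05 there were 68 of the 100 members and 14.6% of all genes tested (2150 genes). DESeq2 called 21 members higher, where it called 1% of all genes higher. MYH1 itself had a log2 fold change of 2.02 ± 1.28 (SE) with an adjusted p of 0.498 in edgeR.

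The proximal forelimb was compared with the girdle and neck in the same way. The 100 members had a median log2 fold change of 0.43, all of them positive, and none passed in edgeR (0% of all genes called). At an unadjusted p under 0.05 there were 35 of the 100 members and 9.11% of the 14770 genes tested, and DESeq2 called 1 member higher beside 0.0503% of all genes. Between proximal hindlimb and proximal forelimb the median was 0.11, with 67 members higher in the hindlimb. None passed in edgeR (0% of all genes), 5 of the 100 members and 13.0% of all genes tested had an unadjusted p under 0.05, and DESeq2 called none of the members higher beside 0.184% of all genes.

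The proximal limb muscles were higher than the distal extensors for 13 members at an adjusted p under 0.05 in edgeR, and lower for 0 members, where 6.4% of all genes were called higher and 9.34% lower. At an unadjusted p under 0.05 there were 34 of the 100 members and 31.0% of all genes tested, which are near each other, and DESeq2 called 23 members higher beside 7.77% of all genes. The median log2 fold change of the members was 0.33. That of MYH1 was 0.30 ± 1.10 (SE), with an adjusted p of 0.879. Of the 13 members, 1 belonged to ranks 1 to 50 and 12 to ranks 51 to 100, and their log2 fold changes were 0.49 to 1.08. The member of rank 97 had the largest of them, 1.08 ± 0.31 (SE, adjusted p = 0.0238 by edgeR's quasi-likelihood test). Its level was 5.77, 10.9, 15.7 and 24.6 CPM in the extensor digitorum communis, lateralis and longus and the extensor carpi radialis. In the 9 proximal limb muscles it lay between 16.2 CPM in the biceps brachii and 49.98 in the vertebral biceps femoris, so that only the extensor carpi radialis overlapped with them. The count of 13 depended on single muscles. It was 0 without the extensor digitorum lateralis, where 6.3% of all genes were called in either direction, and 39 without the extensor carpi radialis, where 14.8% were, against 15.7% with all muscles.

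The genes of the study's heatmap, which the rule left out and which were named by matching counts read from it, are set beside the members here. Part of them were drawn because the study had called them different between groups of these same muscles. Its glycolysis and oxidative phosphorylation genes came from such comparisons, so their correlations below are no independent support. Counting MYH1 itself, 14 of the heatmap genes correlated with MYH1 at least as well as the last member did. Over all 11201 genes ranked, 114 did so, members and heatmap genes included. Of the other 9 genes given there as specific to fast fibres, 5 did so. They were MYBPC2, a fast myosin binding protein, at 0.915, ACTN3, the actinin of fast Z-discs, at 0.845, TNNT3 and TNNI2, fast troponin subunits, at 0.785 and 0.761, and ATP2A1, the calcium pump of fast fibres, at 0.765. MYOM2, an M-band protein, was the only 1 of the 9 with a negative value, -0.11. Of 9 glycolysis genes ranked, 8 did so, among them PKM, which makes pyruvate, at 0.895 and PGAM2, the muscle phosphoglycerate mutase, at 0.787, while the remaining gene was negative at -0.59. None of the 10 genes of oxidative phosphorylation did, though all 10 were positive, with a median of 0.49. All 10 genes of slow fibres were negative, with a median of -0.55.

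ACTN3 changed 24.97-fold across the muscles, more than any of the 100 members. By Spearman correlation over the 18 muscles, the heatmap gene most like a member was ACTN3 for 29 members, MYBPC2 for 16 and MYH1 for 15. It was a fast fibre gene for 66 members, MYH1 counted among them, a glycolysis gene for 33 and a gene of oxidative phosphorylation for 1. Over the 11150 ranked genes outside the heatmap, members included, these shares were 15.7%, 9.71% and 13.7%. Members were picked for their likeness to MYH1, so the tally is largely fixed by that choice, and it describes likeness over 18 libraries only.

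The list itself moved with the muscles in it. With each muscle left out in turn, 69 to 89 of the 100 members stayed among the 100 highest, with the fewest kept without the supraspinatus. All 18 rankings kept 45 members, every one of them from ranks 1 to 50, and 13 members were kept in fewer than 9. Counts were ample for most members, since 75 had at least 100 counts in every library, while 9 had fewer than 30 in their lowest library.

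**Figure D5:**
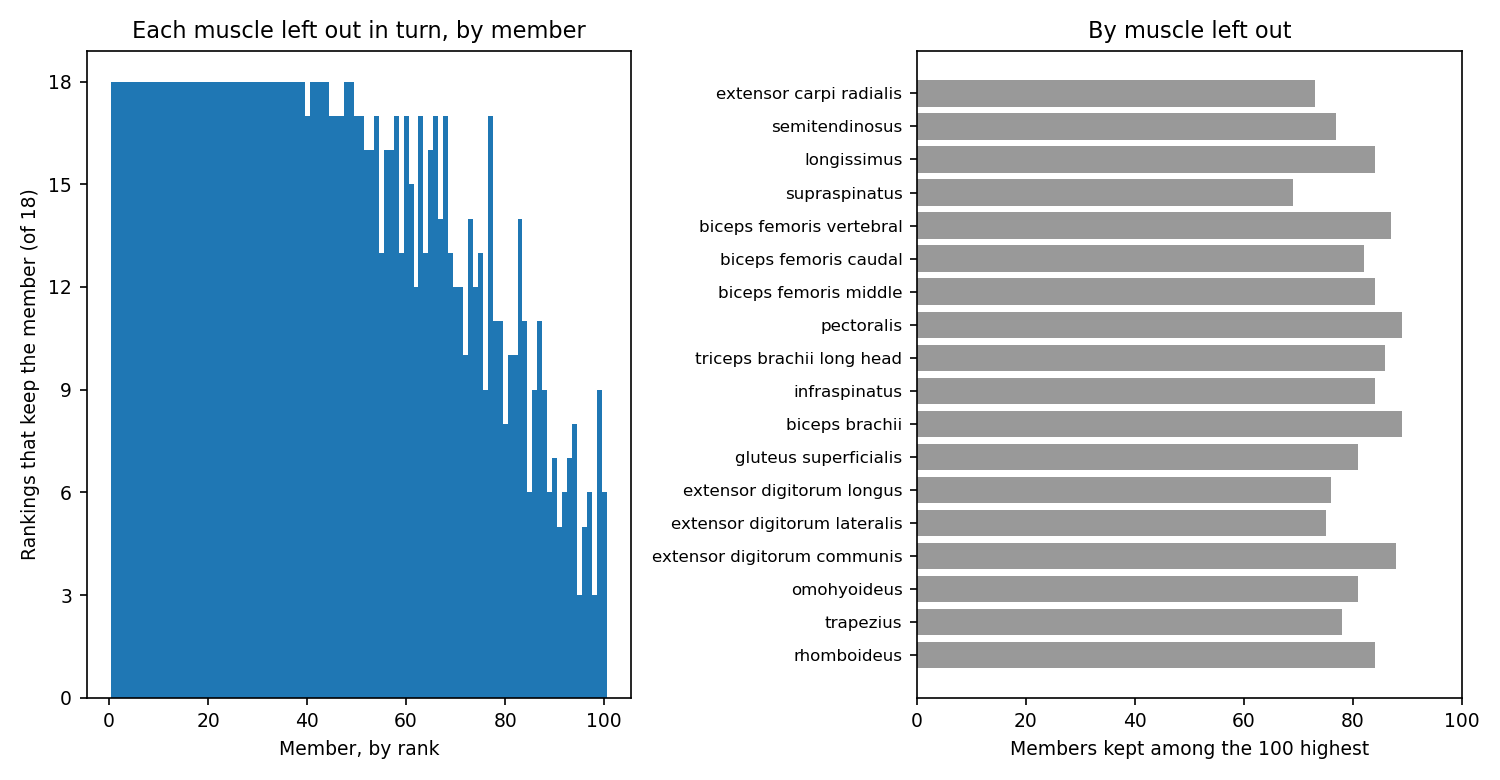
Left, for each of the 100 members by rank, the number of the 18 rankings with 1 muscle left out that keep it among the 100 highest; right, for each muscle left out, the number of members kept. The first 39 ranks stay in every ranking, and the bars on the right run from 69 to 89.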

How the data were processed

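RNA of 18 muscles was depleted of ribosomal RNA and sequenced as paired reads. The authors trimmed reads with NGSQCToolkit, aligned them in 2 passes with STAR 2.5.2b to EquCab2 and counted reads per Ensembl gene; the deposited values are raw counts, with no line that names no gene. From these counts, log2 CPM was computed with edgeR 4.0.16 (R 4.3.3; TMM, prior count 2, at least 10 counts in all 18 libraries). Regions were compared with filterByExpr, TMM, glmQLFit and glmQLFTest with Benjamini-Hochberg adjustment, and with DESeq2 1.42.0 as an alternative, after a test on simulated data. The SE of a log2 fold change was derived from that test, as its absolute value divided by the square root of the F value. Members and lists were chosen with earlier results of these data known.

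The table pairs no identifier with a name, and the reference table gave no match. The heatmap genes to be left out were therefore identified by reading their names and some counts from the published heatmap picture and finding the identifier with those counts, over 7 to 9 muscles per gene. Of 52 genes, 50 equalled 1 identifier in every muscle compared, and the other 2, TNNC1 and ALDOC, in most. No value of the picture is reported. The identifier of MYH1 was given with the rule. Textbook lists and cell type markers could not be matched and were not tested. By the rule for named genes, MYH1, the 10 highest correlations, the 10 largest and 5 smallest slopes and the 5 genes on each side of the edge were to be covered, with at most 2 identifiers; most of them are given as ranges. The members given muscle by muscle were picked after their values were seen; that of rank 27, with the highest mean level, falls outside the rule.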

Additional observations from a re-analysis of the deposited data

Results flagged for a closer look

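The module level, MYH1 and 8 members chosen after their values were seen were examined for a muscle apart from the rest of its region, in 40 groups of 4 or 5 muscles. Of these groups, 2 were marked. The members were chosen to follow MYH1, so the groups are not independent and the count was not set against a chance rate. The module level of the pectoralis (0.04) stood above the other 3 girdle and neck muscles (-0.56 to -0.48), with a gap of 0.858 of the region's range. MYH1 of the gluteus superficialis (2565 CPM) stood below the other 4 samples of the proximal hindlimb, with a gap of 0.764 of the range in log2 CPM. Of those 4 samples, 3 are parts of the biceps femoris and were treated as separate muscles here. The pectoralis also had 10091 CPM of MYH1 against 135 to 303 in the other 3 girdle and neck muscles. Since the module was chosen to follow MYH1, the first gap goes with the choice of members and is no separate finding. The second concerns MYH1, the value that the choice used, and both are given as descriptions.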

How the results depend on the processing

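Of 137 alternative values, 13 moved beyond the tolerance and 64 stayed within it. The other 60 were 0 members called where the main count was also 0, which says nothing about stability. For counts of members the tolerance was 1.5-fold, so a list that kept 68 of 100 members was scored as within it. All 18 lists with 1 muscle left out, which kept 69 to 89 members, were scored so too. The 64 therefore do not show that the list is stable. The list kept 97 of 100 members with DESeq2 size factors, 68 with library totals alone, 57 with Pearson r in place of ranks and 62 without the rhomboideus and trapezius. It kept 87 when the heatmap genes were not left out, an alternative chosen after seeing the data. Leaving out each muscle kept 69 to 89 members and gave a median slope of 0.13 to 0.15. The order of the muscles had a Spearman correlation of 0.827 with the main order under library totals alone; the cause was not tested. The tolerances for the slope and the order were set after seeing the data.

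DESeq2 in place of edgeR called 21, 1 and 23 members higher in proximal hindlimb and proximal forelimb over girdle and neck and in proximal limb over distal extensors. Each of the 17 muscles other than the longissimus was then left out in edgeR. The first of these comparisons gave 0 to 1 members. The 1 came without the pectoralis, where 0.196% of all genes were called in either direction, against 0% with all muscles. The last comparison gave 0 to 39 members. It gave 8 without the triceps brachii or the semitendinosus (14.1% and 13.3% of all genes called in either direction). It gave 7 without the supraspinatus (12.4%) and 4 without the extensor digitorum communis (16.6%). With the 3 parts of the biceps femoris summed to 1 library, which for these comparisons was chosen after seeing the data, the first gave 0 members and the last 10 (0% and 14.9% of all genes). The cause was not tested. No paired analysis was possible because the muscles came from 1 horse, with 1 library each. Counting error is largest for the 9 members with under 30 counts in their lowest library; its effect on the ranking was not tested.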
